A study of Drosophila melanogaster with 18 samples.

Results

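Fat body RNA of larvae with an RNAi transgene against *4EHP* was compared with that of larvae carrying only the driver. The comparison rests on 6 of the 18 libraries of the study, 3 labelled *4EHP* RNAi (both *dcg-Gal4* and *uas-4EHP RNAi*) and 3 controls (genotype *dcg-Gal4/+*). It covers the 8584 of 17575 listed genes whose mean over these 6 libraries was at least 5 CPM, the share of all gene reads that a gene took in a library, scaled to a common total. Per the labels and the study's methods, larvae were males on standard cornmeal food, without treatment, taken late in the last larval instar, though the transcripts of control 3 go against its sex, as given below. Both genotypes carry one copy of *dcg-Gal4*, which switches on UAS transgenes in the fat body. The RNAi transgene was that of a single VDRC line. Per the study's methods, fat bodies of several larvae were pooled for each biological replicate. The controls came from a cross to *w1118* and hold no RNAi transgene, so effects of 4EHP loss and of expressing an RNAi hairpin cannot be told apart. In pieces of tissue, fewer cells of a type and less RNA per cell cannot be told apart either.

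4EHP resembles the translation initiation factor eIF4E and binds the cap at the start of mRNAs, but it does not recruit the rest of the initiation machinery. Partner proteins bring it to particular mRNAs, and in the *Drosophila* embryo it is known for blocking their translation. The larval fat body stores fat, glycogen and protein, and releases storage proteins, lipoproteins, antimicrobial peptides and collagen into the blood. Late in the last instar the steroid hormone ecdysone turns it from growth to storage.

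The 6 libraries held between 59919651 and 92604208 reads on genes. CPM was divided by a factor per library, the median ratio of its genes to their mean over all libraries, and the result is called scaled CPM below. The factor was 0.49 in control 3 and 1.07 to 1.40 in the others. Control 3 also stood apart from its labels. The 12 male transcripts listed (the *roX* RNAs and Y chromosome genes among them) summed to 4.09 CPM there and to between 119 and 335 in the other 5 libraries, and 38 testis genes summed to 159 CPM against 8640 to 12200. The 8 female transcripts summed to 49.4 CPM in control 3 and to at most 3.2 elsewhere, but 6 of the 8 were under 1 CPM in control 3 as well. The tissue itself matched its label, since 12 fat body genes, none of them under 1 CPM in any library, summed to 243000, 304000 and 373000 CPM in controls 1, 2 and 3 and to 229000, 149000 and 211000 in *4EHP* RNAi 1, 2 and 3. Salivary gland genes summed to 47.6, 17.9 and 594 CPM in the controls and to 123, 564 and 641 with *4EHP* RNAi, and gut genes to 262, 211 and 231 against 1660, 503 and 218. In the plot of marker lists by library, control 3 lies apart for the sexes and the testis, and *4EHP* RNAi 1 for the gut.

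**Figure D1:**
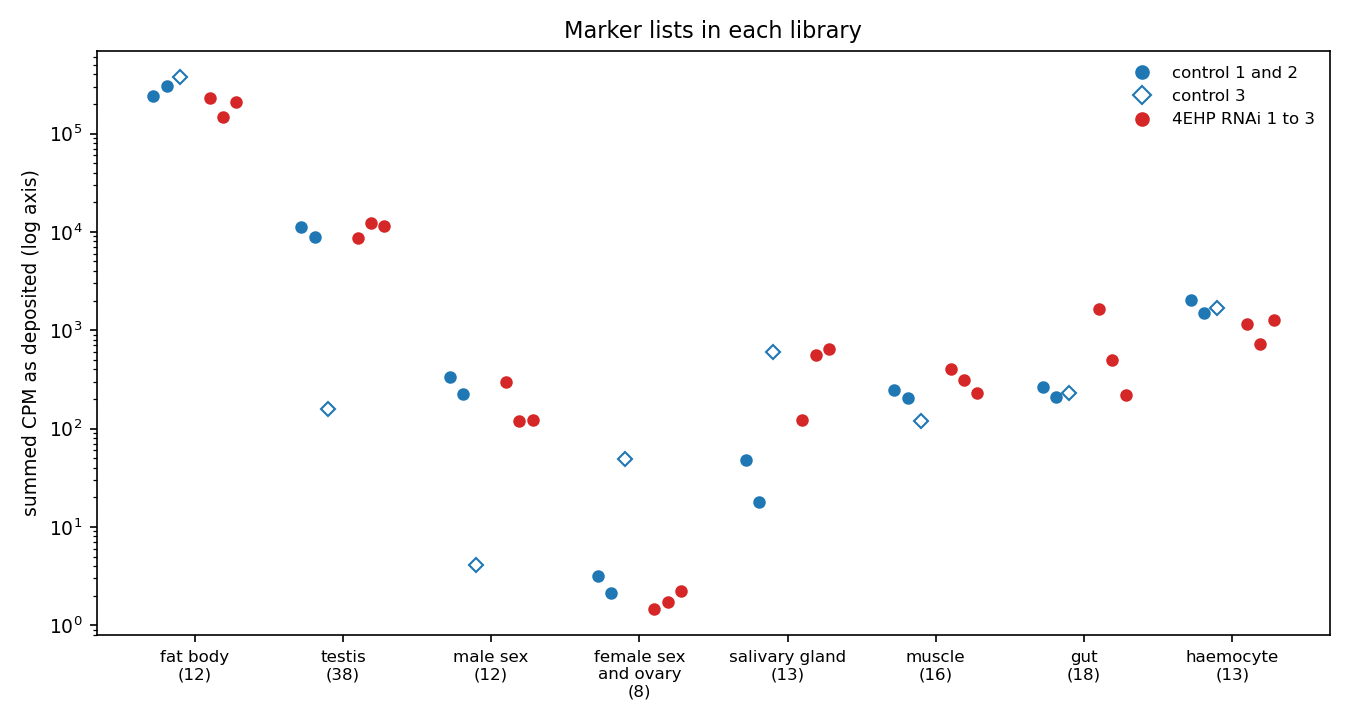
Summed CPM as deposited (log axis) of 8 marker lists, with the number of genes in brackets, in each library. Blue circles are controls 1 and 2, open diamonds control 3 and red circles *4EHP* RNAi 1 to 3. Testis genes summed to 159 CPM in control 3 and to at least 8640 in every other library.

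All results were therefore computed over all 6 libraries and again without control 3. The test was limma on log2(scaled CPM + 1) with Benjamini-Hochberg adjustment over all 8584 genes and a threshold of 0.05. Fold changes are on this log2 scale, which understates the change of low genes.

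The targeted transcript, listed as *eIF4EHP* (3R, 24063077 to 24108960, BDGP6.54 annotation), did not separate the groups over all 6 libraries. It was at 19.9, 19.8 and 11.3 scaled CPM in controls 1, 2 and 3. It was at 17.0, 10.6 and 13.4 in the libraries labelled *4EHP* RNAi. The means differed by −3.4 scaled CPM (exact permutation test, two-sided, p = 0.3), by 0.267 in CPM as deposited (exact p = 0.9) and by −7.28 without control 3 (exact p = 0.2). The smallest p this test allows for 3 against 3 libraries is 0.1. Without control 3, every *4EHP* RNAi library lay below controls 1 and 2. The p of 0.2 is then the smallest that this two-sided test can give. Exons of *eIF4EHP* overlap *Syx1A* on the same strand. The direction of every change below rests on the labels. A transcript chosen after its values were seen is given beside them. The eye colour gene *w* is not functional in *w1118* flies, and many transgenes, those of VDRC among them, carry it as a marker. It was at 17.6, 25.6 and 15.9 scaled CPM in the controls and at 41.8, 67.9 and 63.9 with *4EHP* RNAi, without overlap (log2 fold change without control 3 of 1.42, standard error 0.28, limma adjusted p = 0.0347). Between the NELF-E RNAi and *lacZ* RNAi libraries of the study, which both carry an RNAi transgene, *w* differed by 1.43 on the log2 scale. The *w* marker of the *lacZ* RNAi line and the insertion sites of the transgenes are not given in the sources used here. The source of either difference in *w*, and its bearing on the labels, was not tested.

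Over all 6 libraries, limma called 0 genes higher (0% of those tested) and 0 lower (0%), with 850 genes (9.90%) at an unadjusted p under 0.05. DESeq2 on reads recovered from the CPM values called 205 genes higher (2.42% of 8480) and 182 lower (2.15%). Without control 3, limma called 459 genes higher with *4EHP* RNAi (5.35% of 8584) and 123 lower (1.43%). Below, "rose" and "fell" mean a call in this fit without control 3, and counts in gene lists are to be set beside these shares of all genes. The median log2 fold change of the genes that rose was 1.68 and of those that fell −1.89, and 150 rose and 56 fell at least 4-fold.

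The 459 and 123 genes all had the same sign over 6 libraries. All 3 *4EHP* RNAi libraries lay above all 3 controls for 292 of the 459 (background 7.78% of genes tested). They lay below all controls for 122 of the 123 (background 11.0%), *CG32006* being the exception. In control 3, scaled CPM was above that of controls 1 and 2 for 386 of the 459 genes that rose and 115 of the 123 that fell. Control 3 thus lay on the side of *4EHP* RNAi for most rises and on the opposite side for most falls. Its median ratio to the mean of controls 1 and 2 was alike in both sets, 2.45 for the rises and 2.48 for the falls. Over all genes tested, the median gene of control 3 lay 0.22 above that mean on the log2 scale. The share of all genes tested with control 3 as the highest control was not counted. For 128 of the rises control 3 was also above the *4EHP* RNAi mean. DESeq2 on 6 libraries also called 183 of the rises and 116 of the falls. edgeR without control 3 called 367 genes higher (4.28% of those tested) and 97 lower (1.13%), among them 357 of the rises and 94 of the falls.

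The counts depended on single libraries. With another library left out as well, limma called 75 genes higher and 28 lower (without control 1), 242 and 45 (without control 2), 1103 and 902 (without *4EHP* RNAi 1), 174 and 64 (without *4EHP* RNAi 2) and 110 and 33 (without *4EHP* RNAi 3). In the plot of change against level, rises are spread over all levels, while several of the falls are among the most abundant transcripts of the tissue.

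**Figure D2:**
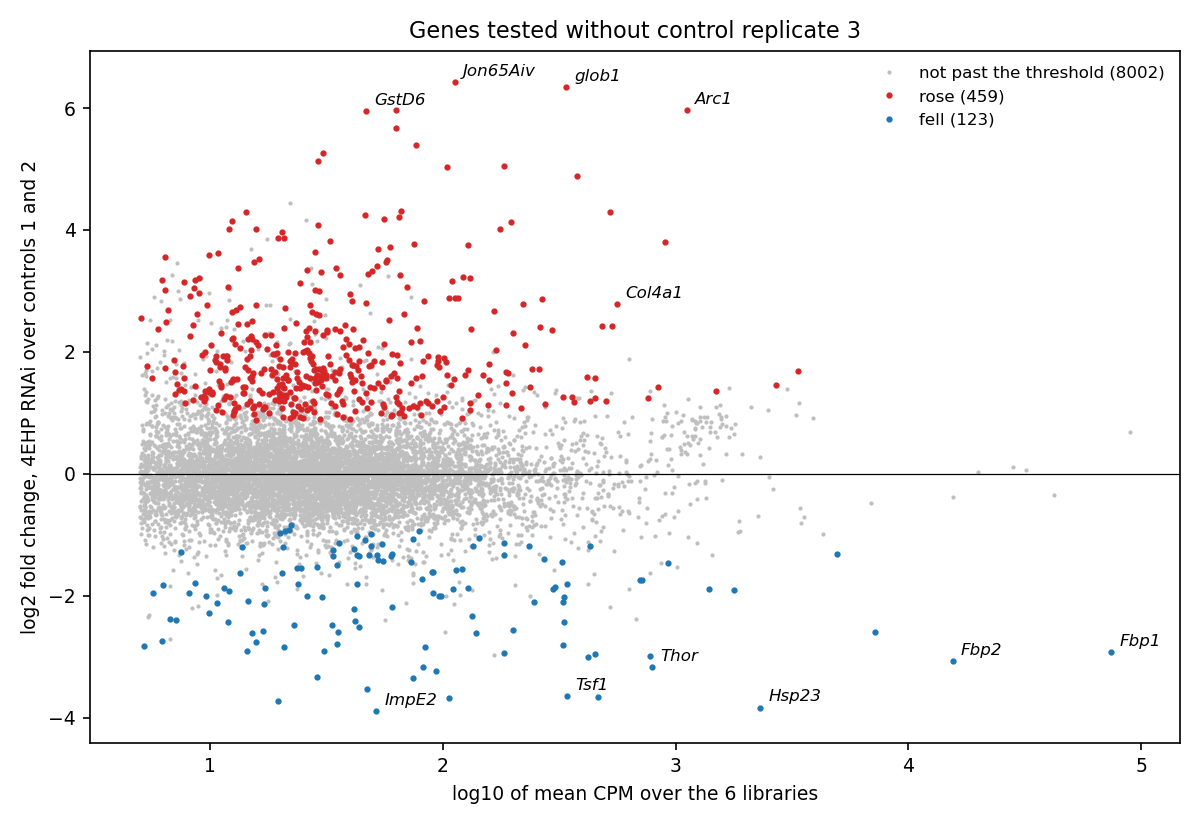
Log2 fold change of *4EHP* RNAi over controls 1 and 2 (limma, without control 3) against the log10 mean CPM over 6 libraries, for 8584 genes. Red points are the 459 genes that rose, blue points the 123 that fell and grey points the 8002 not past the threshold, and a few genes named in the text are marked.

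Among the largest rises whose groups did not overlap was the globin *glob1*, which encodes an oxygen-binding protein. It was at 5.06, 5.73 and 14.0 scaled CPM in controls 1, 2 and 3. It was at 673, 510 and 336 with *4EHP* RNAi. Every library of one group was far from every library of the other, and *glob1* rose by 6.34 on the log2 scale (standard error 0.32, adjusted p = 0.000414), or by 5.84 over 6 libraries (adjusted p = 0.0777).

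*Arc1* and *Arc2*, neighbours on 2R that encode proteins related to the capsid protein of retrotransposons, rose together. *Arc1* was at 23.8, 28.7 and 116 scaled CPM in the controls and at 1600, 1620 and 1690 with *4EHP* RNAi. *Arc2* was at 1.44, 2.65 and 12.0 against 129, 102 and 108. The *4EHP* RNAi libraries were close to one another while control 3 was the highest control for both. *Arc1* rose by 5.97 on the log2 scale (standard error 0.22, adjusted p = 0.000278) and *Arc2* by 5.39 (standard error 0.24, adjusted p = 0.000299). Over 6 libraries it was 5.21 and 4.54.

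*JhI-26*, named for its induction by juvenile hormone, was at 3.13, 4.79 and 37.9 scaled CPM in the controls and at 130, 162 and 154 with *4EHP* RNAi. It rose by 5.03 on the log2 scale (standard error 0.23, adjusted p = 0.000299). Exons of *JhI-26* overlap an antisense RNA. *CG31288*, *CG13077*, *CG15347* and *CG8160*, genes without a name in the annotation, rose by 4.88 to 5.68 on the log2 scale. Of these, *CG8160* was at 17.5, 16.8 and 30.9 scaled CPM in the controls and at 793, 575 and 297 with *4EHP* RNAi, and *CG15347* at 6.51, 8.52 and 36.4 against 267, 278 and 248. The remaining ones of the 12 largest rises are a glutathione S-transferase, *GstD6*, and the serine proteases *Jon65Aiv*, *Jon65Aiii* and *yip7*, given with their families below.

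Of the 12 largest falls, those in *ImpE2*, *Hsp23*, *Cyp304a1*, *Cyp6d5*, *Tsf1*, *GILT2* and *Thor* belong to groups below. *CG6870*, *CG6357*, *CG34136*, *CG15210* and *CG43060*, again without a name, fell by 3.17 to 3.68 on the log2 scale. *CG15210* was at 47.0, 40.6 and 107 scaled CPM in the controls and at 3.68, 3.78 and 3.14 with *4EHP* RNAi (log2 fold change −3.33, standard error 0.21, adjusted p = 0.000972). *CG43060* was at 128, 149 and 211 against 20.4, 11.7 and 11.9. In the plot of the largest changes, the groups are separate for all 24 genes by the rule that chose them. Control 3 is the highest control for each of the 12 rises.

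**Figure D3:**
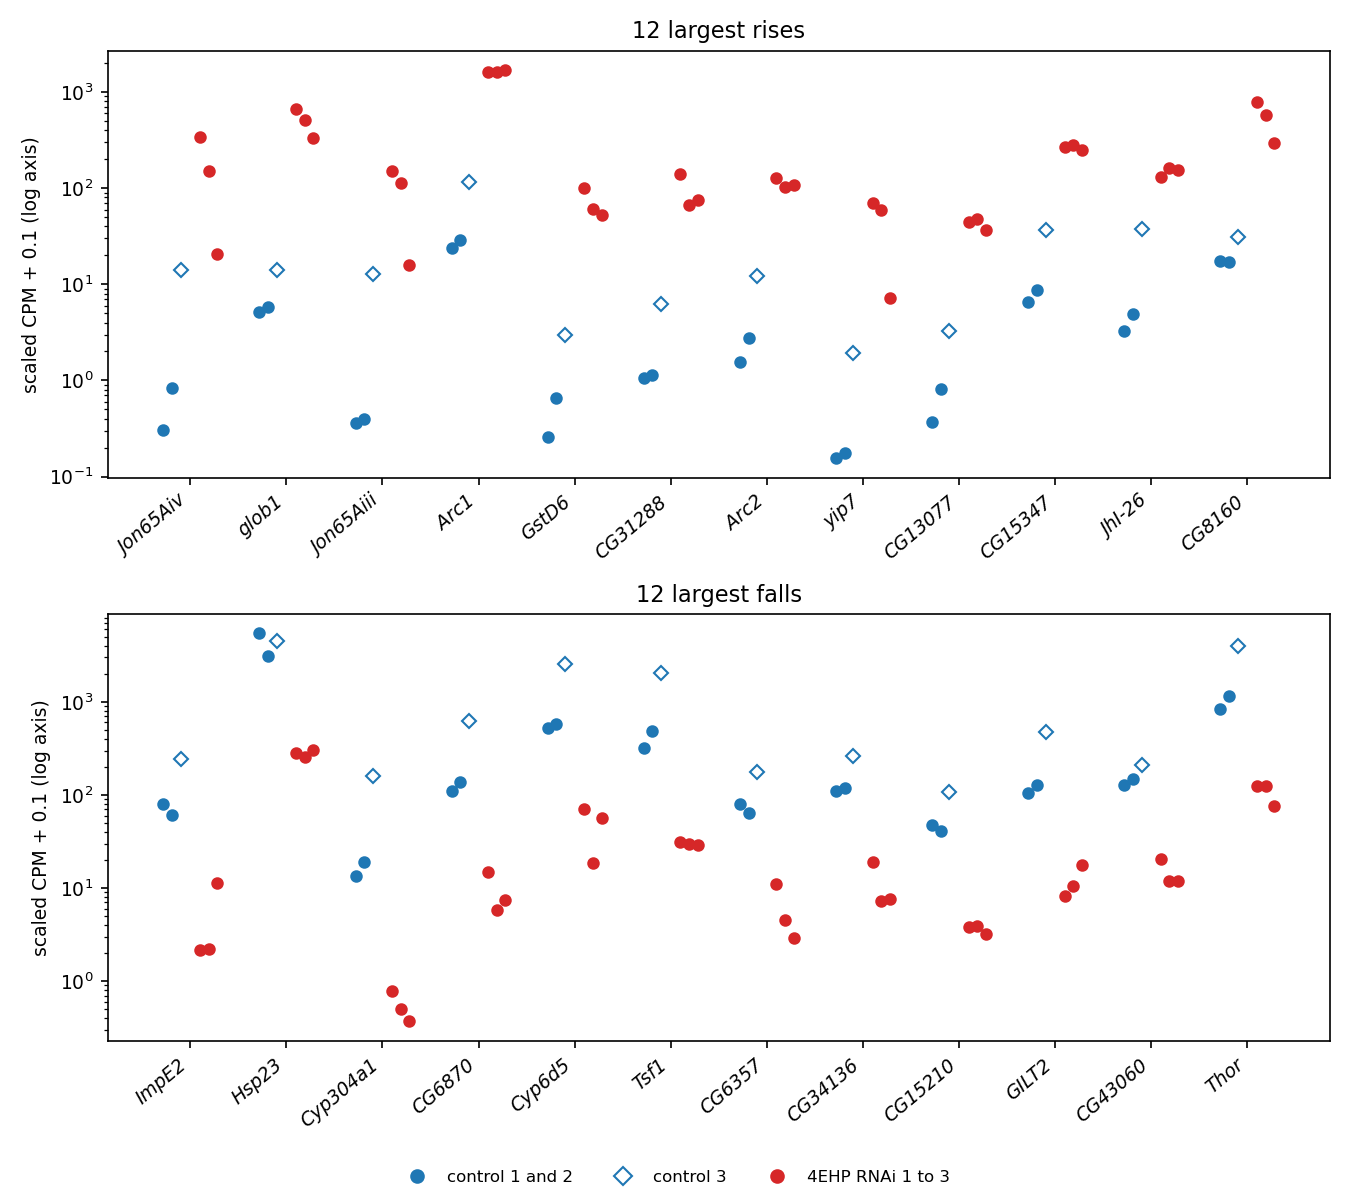
Scaled CPM plus 0.1 (log axis) in each library for the 12 largest rises and the 12 largest falls among genes called without control 3 whose groups did not overlap over 6 libraries. Blue circles are controls 1 and 2, open diamonds control 3 and red circles *4EHP* RNAi 1, 2 and 3 from left to right. *Arc1* lies between 1600 and 1690 with *4EHP* RNAi and at 116 or less in the controls.

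Genes that build ribosomes formed the list with the most rises. Of 63 tested genes for rRNA synthesis and ribosome assembly, 31 rose and 0 fell (49.2%, against 5.35% of all genes). The 3 *4EHP* RNAi libraries lay above all controls for 50 of them, against 7.78% of all genes, and the median log2 fold change was 1.27 without control 3 and 1.21 over 6 libraries (all genes −0.01 and 0.15). The median stayed between 0.91 and 1.73 over 33 settings, and DESeq2 on 6 libraries called 28 of the genes higher and 0 lower. Unlike most rises, this group had control 3 beside the other controls. The median gene differed from the mean of controls 1 and 2 by −0.13, 0.13 and 0.07 in controls 1, 2 and 3 and by 0.95, 1.44 and 1.15 in *4EHP* RNAi 1, 2 and 3 on the log2 scale.

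*NHP2*, a protein of the box H/ACA particles that modify rRNA, was at 8.33, 12.1 and 12.9 scaled CPM in the controls and at 38.6, 66.5 and 43.6 with *4EHP* RNAi (log2 fold change 2.21, standard error 0.29, adjusted p = 0.0102, and 2.04 over 6 libraries). *hoip*, which binds the box C/D particles, was at 9.35, 12.1 and 16.3 against 36.3, 60.4 and 44.7. *nclb*, a PWP1 homologue that promotes rRNA transcription, was at 8.67, 13.7 and 12.4 against 35.4, 63.5 and 53. The lowest *4EHP* RNAi library was more than double the highest control for each of them. *eIF6*, which keeps new large subunits from joining small ones, was at 32.6, 41.4 and 23.7 against 122, 135 and 131 (log2 fold change 1.83, adjusted p = 0.00625).

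**Figure D4:**
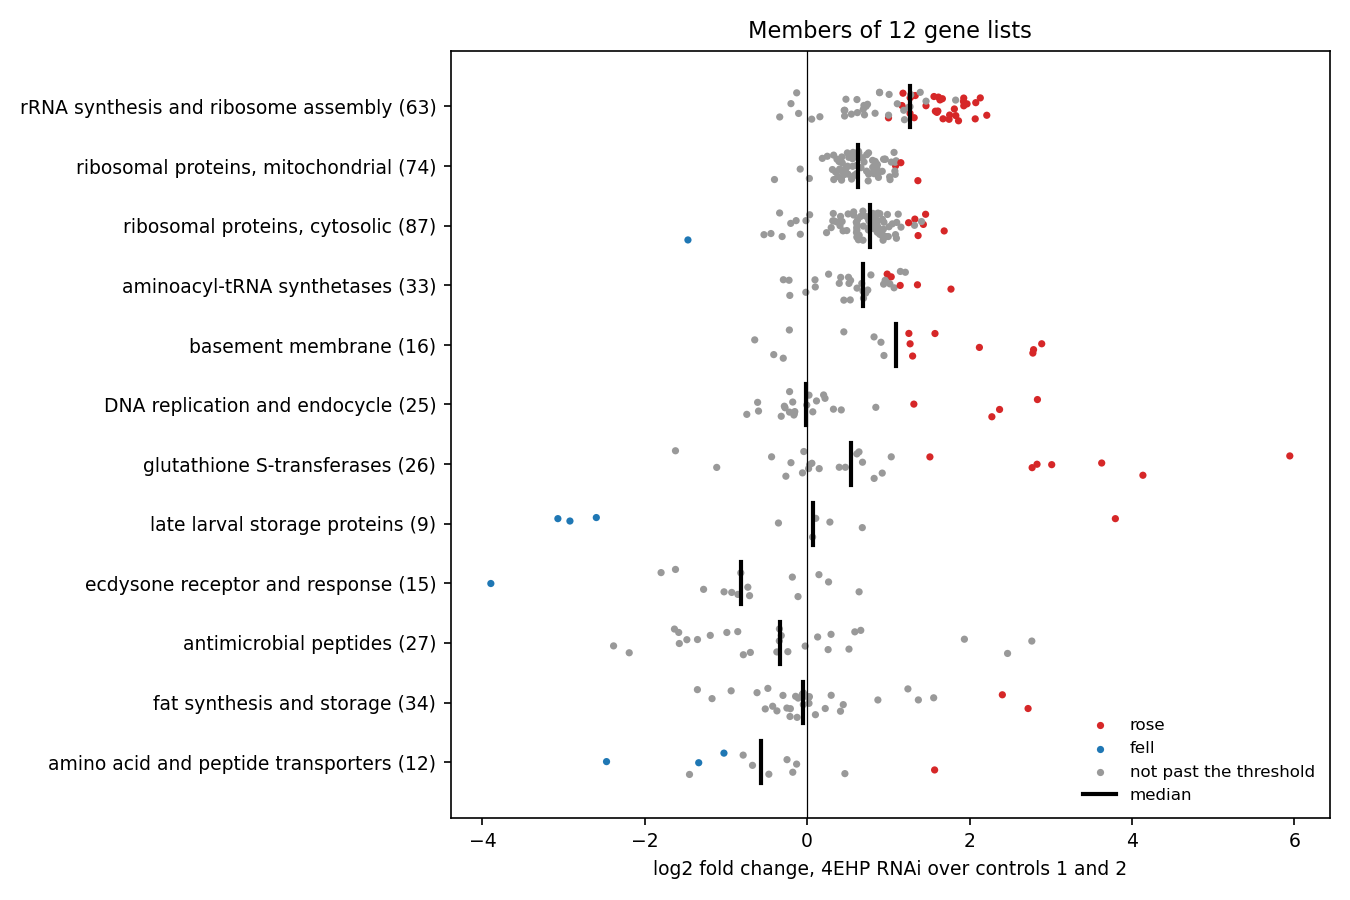
Log2 fold change of *4EHP* RNAi over controls 1 and 2 for the tested members of 12 gene lists, their number in brackets, with small random vertical shifts. Red members rose, blue members fell, grey ones did not pass the threshold, and black bars are medians. The median of rRNA synthesis and ribosome assembly is 1.27 and that of the ecdysone list −0.82.

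Ribosomal proteins themselves moved less. Of 74 mitochondrial ribosomal protein genes, 3 rose (*mRpL30*, *mRpL54* and *mRpL14*, by 1.09 to 1.36 on the log2 scale) and 0 fell, which is 4.05% against 5.35% of all genes. *4EHP* RNAi was above all controls for 32 of the 74 (43.2%, against 7.78% of all genes), and the median was 0.62 without control 3 and 0.54 over 6 libraries. Of 87 cytosolic ones, 6 rose (6.9%, near the 5.35% of all genes) and *RpS7* fell. *4EHP* RNAi was above all controls for none of the 87. Control 3 was the highest library for their median gene, at 2.01 relative to controls 1 and 2 on the log2 scale, though not for every gene. Their median was 0.77 without control 3 and 0.10 over 6 libraries, and it changed sign over the settings (−0.34 to 1.02). *RpL10*, the largest of these rises, was at 922, 1430 and 4960 scaled CPM in the controls and at 2800, 4850 and 3450 with *4EHP* RNAi. *RpS7* was at 772, 1110 and 4060 against 251, 398 and 343. In the plot of gene groups by library, control 3 lies with the other controls for ribosome assembly and above all libraries for cytosolic ribosomal proteins.

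**Figure D5:**
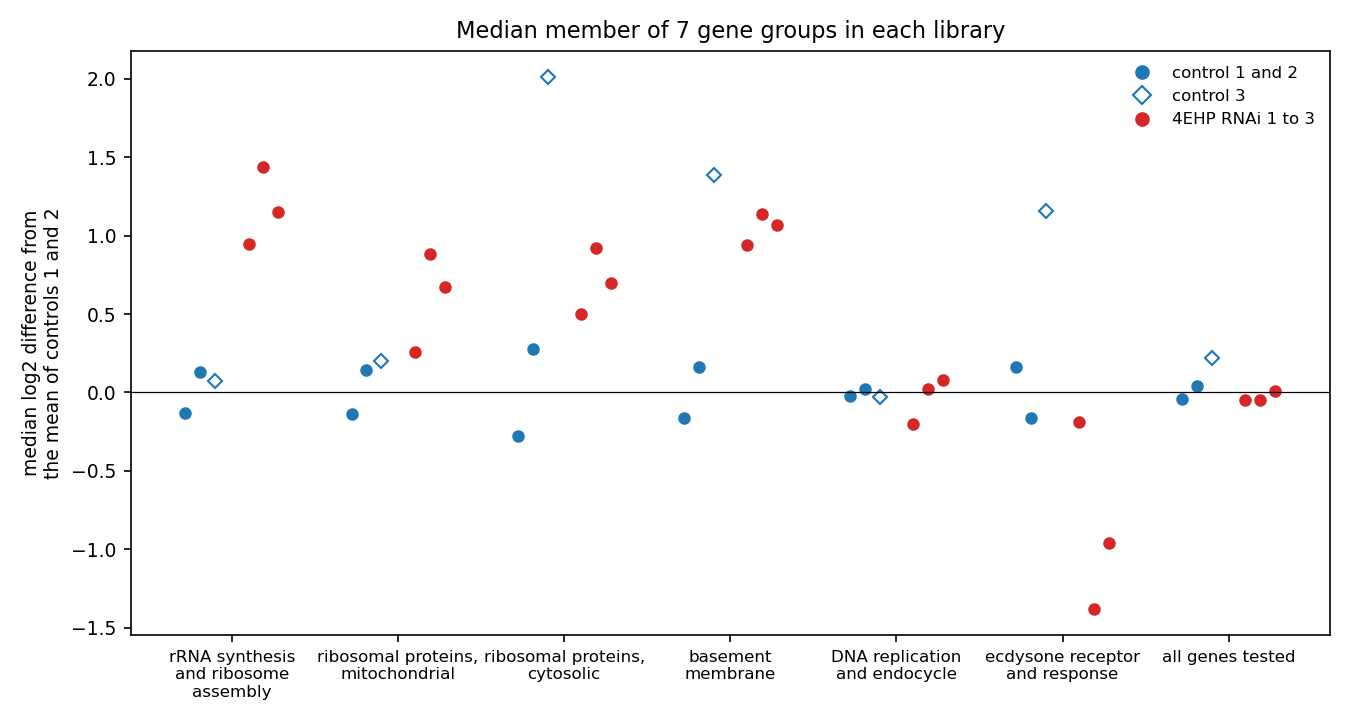
Median over the members of 6 gene lists and over all genes tested of the log2 difference from the mean of controls 1 and 2, in each library. Blue circles are controls 1 and 2, open diamonds control 3 and red circles *4EHP* RNAi 1, 2 and 3. For ribosome assembly the *4EHP* RNAi libraries lie at 0.95, 1.44 and 1.15 and control 3 at 0.07, while for cytosolic ribosomal proteins control 3 lies at 2.01.

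Among enzymes that charge tRNAs, a few passed the test. Of 33 aminoacyl-tRNA synthetases, 5 rose and 0 fell (15.2%, against 5.35% of all genes), with a median of 0.69 without control 3 and 0.47 over 6 libraries. *HisRS* was at 11.9, 16.1 and 30.2 scaled CPM in the controls and at 30.2, 72.0 and 50.5 with *4EHP* RNAi (log2 fold change 1.77, adjusted p = 0.0389). Control 3 and *4EHP* RNAi 1 were equal to the digits shown. Its exons overlap *Bx* on the same strand. *LysRS*, *LeuRS* and *LeuRS-m* rose by 1.04 to 1.36. DESeq2 over 6 libraries and edgeR without control 3 called none of the 33 genes.

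Of 43 initiation factors 5 rose and 0 fell (11.6%, against 5.35% of all genes), with a median of 0.05. Beside *eIF6* these included *eIF2beta*, a subunit of the complex that brings the first tRNA, at 81.5, 125 and 232 scaled CPM in the controls and 262, 271 and 263 with *4EHP* RNAi (log2 fold change 1.43, adjusted p = 0.0224). *eIF2Bgamma*, of the exchange factor that recharges it, and *eIF2D* rose by 1.29 and 1.20. None of 23 partners of 4EHP and factors of mRNA repression and decay was called, and their median was −0.42 (−0.28 over 6 libraries, −0.64 to 0.27 over the settings).

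Both collagen IV chains rose. Of these, *Col4a1* is the collagen gene of the *dcg-Gal4* driver, and whether driver activity differed between the groups was not tested. Basement membrane genes had 8 of 16 members risen and 0 fallen (50.0%, against 5.35% of all genes). Their median was 1.10 without control 3 and 0.71 over 6 libraries, and 0.41 to 1.28 over the settings. *Col4a1* (2L, 5029609 to 5037279), a collagen IV chain, was at 67.7, 171 and 287 scaled CPM in the controls. It was at 619, 828 and 751 with *4EHP* RNAi. The second chain, *vkg*, beside it on 2L (5012144 to 5028191), was at 24.3, 74.0 and 112 against 270, 297 and 300. For both chains the controls spread more than 4-fold and still lay below *4EHP* RNAi, with log2 fold changes of 2.79 (standard error 0.39, adjusted p = 0.0126) and 2.78 (standard error 0.43, adjusted p = 0.0163), and of 2.28 and 2.27 over 6 libraries. *Plod*, which hydroxylates collagen lysines, was at 17.2, 21.5 and 112 against 147, 159 and 127 (log2 fold change 2.89, adjusted p = 0.00199), so control 3 was close to *4EHP* RNAi. *Ndg* (nidogen) rose by 2.12, but its groups overlapped, with 84.6 in control 3 against 49.8 to 85.9.

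Haemocytes, blood cells that also make basement membrane, were followed by 13 markers. These summed to 2050, 1490 and 1700 CPM in the controls and to 1150, 731 and 1270 with *4EHP* RNAi. The sum and the median gene differed in direction, since 7 of the 10 markers tested had a positive log2 fold change without control 3, with a median of 1.13 (0.45 over 6 libraries). Among them *Hml* and *NimC1*, named after their values were seen, rose without control 3, by 1.55 and 1.47, with control 3 above all *4EHP* RNAi libraries for both. Muscle markers summed to 245, 205 and 118 CPM against 399, 313 and 229. Their part in the collagen result was not tested.

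Enzymes that detoxify changed in both directions. Of 26 glutathione S-transferases, which attach glutathione to reactive compounds, 7 rose and 0 fell (26.9%, against 5.35% of all genes). Their median was 0.54 (0.01 over 6 libraries, −0.32 to 0.70 over the settings). The largest rises were in the delta class, whose genes *GstD3*, *GstD4*, *GstD5* and *GstD6* lie on 3R from 12373068 to 12377907. *GstD3* was at 18.0, 12.4 and 10.6 scaled CPM in the controls and at 295, 164 and 399 with *4EHP* RNAi (log2 fold change 4.14, standard error 0.39, adjusted p = 0.00374, and 4.23 over 6 libraries). *GstD6* was at 0.157, 0.558 and 2.90 against 99.4, 60.0 and 52.1 (log2 fold change 5.94, standard error 0.33, adjusted p = 0.000552). *GstD5* and *GstD4* rose by 3.63 and 3.01. These genes are close relatives, and how reads shared between them were counted is not given in the sources used here. *GstD1*, the most abundant delta member and named after its values were seen, was at 253, 444 and 1210 against 641, 716 and 517 (log2 fold change 0.92, adjusted p = 0.141).

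Among 43 cytochromes P450, which oxidise hormones and foreign compounds, 5 rose and 5 fell (11.6% each, against 5.35% and 1.43% of all genes). Their median was 0.02 (−0.50 over 6 libraries). *Cyp9b1* was at 1.64, 4.13 and 17.9 scaled CPM in the controls and at 94.7, 54.2 and 49.2 with *4EHP* RNAi (log2 fold change 4.25, standard error 0.39, adjusted p = 0.0032). *Cyp6d5* went the other way, from 521, 585 and 2580 to 71.3, 18.3 and 56.1 (log2 fold change −3.65, standard error 0.54, adjusted p = 0.0141). *Cyp304a1* was at 13.3, 18.8 and 159 against 0.676, 0.408 and 0.269, and *Cyp4p1* fell by 2.91 on the log2 scale. Each of these named P450 genes separated the groups over all 6 libraries.

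Of 10 UDP-glycosyltransferases, which attach sugars to such compounds, 3 rose (*Ugt302K1*, *Ugt49B1* and *Ugt301D1*, by 2.52 to 3.38) and 0 fell. The share that rose was 30.0%, against 5.35% of all genes. Of 17 genes that remove peroxide and superoxide or repair what they oxidise, the peroxiredoxin *Jafrac1* rose and *MsrA* fell. *MsrA*, which reduces oxidised methionine, was at 212, 121 and 1240 scaled CPM in the controls and at 24.3, 13.4 and 23.1 with *4EHP* RNAi (log2 fold change −2.94, standard error 0.36, adjusted p = 0.00763).

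Of 9 storage proteins of the late larva, 3 fell, *Obp99a*, of the odorant-binding protein family, rose, and 5 did not pass the test. *Fbp1*, the fat body receptor that takes up serum storage protein, was at 97600, 104000 and 299000 scaled CPM in the controls and at 17300, 6510 and 19300 with *4EHP* RNAi (log2 fold change −2.92, standard error 0.50, adjusted p = 0.0224). *Fbp2*, an alcohol dehydrogenase relative, was at 17600, 20400 and 78200 against 3000, 1250 and 2800 (log2 fold change −3.07, adjusted p = 0.0124). The storage hexamerin *Lsp1alpha* was at 4990, 14200 and 31800 against 2360, 1070 and 976 (log2 fold change −2.60, adjusted p = 0.042). All 3 had separate groups, and all were highest in control 3. The other hexamerins, given after their values were seen, had log2 fold changes of 0.07 (*Lsp1beta*), 0.11 (*Lsp1gamma*) and 0.68 (*Lsp2*). *Obp99a* was at 59.8, 109 and 248 against 516, 1410 and 1840 (log2 fold change 3.80, standard error 0.56, adjusted p = 0.0138).

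Genes of the ecdysone receptor and its response had a negative median, −0.82 without control 3 and −1.13 over 6 libraries, and −1.45 to −0.54 over the settings. Of 15 tested, *4EHP* RNAi was below all controls for 7, against 11.0% of all genes, and 1 fell, *ImpE2*. This gene, induced by ecdysone in imaginal discs, was at 79.4, 61.4 and 243 scaled CPM in the controls and at 2.08, 2.11 and 11.1 with *4EHP* RNAi (log2 fold change −3.90, standard error 0.61, adjusted p = 0.0173). The 14 others had adjusted p values of at least 0.0877 without control 3. Of 6 genes for juvenile hormone breakdown and response, the epoxide hydrolase *Jheh2* fell by 1.32 and *JhI-26* rose. The salivary gland genes, which include glue genes that ecdysone switches on at this stage, summed to more in all 3 *4EHP* RNAi libraries than in controls 1 and 2. Control 3 was above 2 of the 3 in CPM, and in scaled CPM above all of them (1210 against 97.5, 403 and 474). The developmental age of each library is not given in the sources used here, and its part in these results was not tested.

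Other products of the fat body that fell include carriers and signals. *Tsf1*, the iron-carrying transferrin of the blood, was at 317, 485 and 2020 scaled CPM in the controls and at 31.2, 29.6 and 28.8 with *4EHP* RNAi (log2 fold change −3.64, standard error 0.24, adjusted p = 0.000993). It was the only one of 27 genes of metal storage and transport past the threshold. *Lst* (limostatin), a hormone that restrains insulin release, was at 253, 404 and 1410 against 109, 95.3 and 59.2. *Gbp1*, a growth-blocking peptide that promotes it, was at 169, 143 and 281 against 38.8, 61.2 and 54.9. Their log2 fold changes were −1.86 (adjusted p = 0.0281) and −1.56 (adjusted p = 0.0216), so both of these opposing signals fell.

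*GILT2* and *GILT3*, which lie together on 3R (23677358 to 23679855) and encode relatives of a mammalian lysosomal thiol reductase, fell in parallel. *GILT2* was at 105, 128 and 480 scaled CPM in the controls and at 8.07, 10.3 and 17.4 with *4EHP* RNAi (log2 fold change −3.23, standard error 0.32, adjusted p = 0.00412). *GILT3* was at 26.7, 33.5 and 118 against 5.16, 7.22 and 7.82. Control 3 was the highest library for both and the groups were separate.

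Small heat shock proteins, chaperones that hold unfolded proteins, did not move as one. *Hsp23* was at 5420, 3080 and 4550 scaled CPM in the controls and at 280, 254 and 301 with *4EHP* RNAi (log2 fold change −3.84, standard error 0.32, adjusted p = 0.00251, and −3.93 over 6 libraries). Here control 3 lay between the other controls. *Hsp27*, beside it on 3L (9381882 to 9385694 for both), was at 558, 331 and 475 against 129, 126 and 86.5. The crystallin relative *l(2)efl* rose instead, from 0.713, 2.07 and 5.07 to 13.5, 20.9 and 14.8. *Hsp70Bb* was at 0.259, 0.426 and 0 against 24.6, 14.9 and 5.18, a rise that is uncertain because near-identical *Hsp70* copies share reads. The other 18 of the 22 genes tested in the list of heat shock proteins, which is not limited to small ones, were not called.

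In metabolism, few enzymes of each pathway passed the threshold. Of 34 genes of fat synthesis and storage, 2 rose, around a median of −0.05. *Apoltp*, which makes the particle that loads lipids onto lipoproteins, was at 61.1, 68.5 and 89.4 scaled CPM in the controls and at 427, 329 and 271 with *4EHP* RNAi (log2 fold change 2.40, standard error 0.27, adjusted p = 0.0056, and 2.21 over 6 libraries). The acyl-CoA synthetase *bgm* was at 2.59, 4.70 and 12.7 against 22.0, 36.0 and 24.6. In fatty acid oxidation, 1 of 23 was called, the dehydrogenase *scu*, which fell from 347, 525 and 1130 to 76.6, 117 and 117 (log2 fold change −2.02, adjusted p = 0.0141).

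In sugar metabolism the glucose transporter *Glut1* fell by 1.18 and glycogen synthase *GlyS* rose by 1.30, of 14 genes. *GlyS* was at 7.19, 9.81 and 34 scaled CPM in the controls and at 17.8, 25.5 and 21.2 with *4EHP* RNAi, so control 3 was the highest library, and its log2 fold change over 6 libraries was 0.61 (adjusted p = 0.696). Arginase (*arg*), which splits arginine into urea and ornithine, was at 3.18, 5.54 and 25.5 scaled CPM in the controls and at 78.0, 103 and 90.4 with *4EHP* RNAi (log2 fold change 4.21, standard error 0.26, adjusted p = 0.000748, and 3.34 over 6 libraries). Its exons overlap *elav* and *CG4293* on the other strand. Glutamate dehydrogenase (*Gdh*) rose by 1.81 with overlapping groups. These were the calls among 22 genes of amino acid breakdown, whose median was −0.09.

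Of 7 genes of purine breakdown, 2 rose. *mal*, which activates the molybdenum cofactor of xanthine dehydrogenase, was at 5.17, 7.96 and 21.2 scaled CPM in the controls and at 31.1, 36.4 and 30.3 with *4EHP* RNAi (log2 fold change 2.24, adjusted p = 0.00445). *Adgf-A*, an adenosine deaminase, rose by 1.04. Among 18 nucleotide synthesis genes, *RnrL* and *CTPsyn* rose and *Pura* fell, the last being in the list by its symbol and not known as such an enzyme. Among 8 genes of the methionine cycle, *Ahcy* rose by 1.66, with control 3 above all *4EHP* RNAi libraries.

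Transporters of amino acids and peptides were lower in median, −0.57 without control 3 and −1.06 over 6 libraries (−1.25 to −0.35 over the settings). *4EHP* RNAi lay below all controls for 7 of 12 (58.3%, against 11.0% of all genes), *kcc* among them. The subunit *gb*, of a cystine and glutamate exchanger, was at 49.2, 49.8 and 92.0 scaled CPM in the controls and at 26.7, 19.4 and 24.3 with *4EHP* RNAi (log2 fold change −1.03, adjusted p = 0.0374). *CG13384* fell by 1.34, and *mnd*, a transporter of large neutral amino acids, rose by 1.57. *kcc*, which fell by 2.47 from 53.4, 46.0 and 94.9 to 9.74, 5.47 and 9.67, is listed with them but carries potassium and chloride.

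In the list of insulin, TOR and FOXO genes, 2 of 29 were called. *Lst8*, a subunit of the TOR complexes, was at 7.87, 9.60 and 20.9 scaled CPM in the controls and at 41, 28.8 and 29.2 with *4EHP* RNAi (log2 fold change 1.85, adjusted p = 0.0083). *Thor*, the 4E-BP translation inhibitor, fell by 3.17. Of 85 genes of oxidative phosphorylation 3 rose (*Cyt-c1*, *ND-MLRQ* and *sun*) and 0 fell, which is 3.53% against 5.35% of all genes. The list's median was 0.47, and each of the 3 had overlapping groups. Of 9 globin and heme genes, *Pbgs*, an early enzyme of heme synthesis, rose beside *glob1*, from 6.65, 8.08 and 20.6 to 33.0, 48.9 and 39.2.

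Single-stranded DNA binding proteins stood out among 25 genes of DNA replication and the endocycle, in which fat body cells copy their DNA without dividing. The list's median was −0.01, and 4 genes rose (16.0%, against 5.35% of all genes). *RpA-70*, the large subunit of replication protein A, was at 32.6, 35.2 and 31.9 scaled CPM in the controls and at 169, 163 and 190 with *4EHP* RNAi (log2 fold change 2.37, standard error 0.20, adjusted p = 0.00251, and 2.35 over 6 libraries). *RPA3*, its smallest subunit, was at 6.48, 7.65 and 12.3 against 40.7, 68.5 and 55.7. In both, control 3 was near the other controls. *RnrL*, of ribonucleotide reductase, and *RfC4*, of the clamp loader, rose by 2.28 and 1.31. The middle subunit *RPA2* had a log2 fold change of 0.85 (adjusted p = 0.0691). *PCNA*, *Mcm2* and *Mcm7*, core replication genes given with *RPA2* after their values were seen, had −0.15, 0.02 and −0.01.

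Immune genes gave few calls. Of 27 antimicrobial and related peptides, 0 were called by limma without control 3, and their levels varied within both groups. The antibacterial diptericin *DptA*, chosen after its values were seen, was at 15.3, 533 and 976 scaled CPM in controls 1, 2 and 3 and at 9.58, 373 and 31.2 with *4EHP* RNAi 1, 2 and 3. Control 1 and *4EHP* RNAi 1 were the lowest and control 3 the highest. The median gene of the list lay at −1.16, 1.16 and 3.08 in the controls and at −2.27, 2.11 and −0.93 with *4EHP* RNAi, relative to controls 1 and 2 on the log2 scale. *4EHP* RNAi was below all controls for 4 of the 27 (14.8%), near the 11.0% of all genes tested. DESeq2 on 6 libraries called 3 of the 27 lower, against 2.15% of all genes it tested.

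Among 42 genes of Toll and Imd recognition and signalling, *SPE* and *Tep4* rose and *pirk* and *spirit* fell. *SPE*, the protease that activates the Toll ligand, was at 2.95, 5.87 and 27.6 scaled CPM in the controls and at 33.8, 41.3 and 39.2 with *4EHP* RNAi (log2 fold change 2.99, standard error 0.27, adjusted p = 0.0032). Its exons overlap *CG18754*. *pirk*, an inhibitor of Imd signalling, was at 78.9, 46.4 and 107 against 9.73, 15.6 and 7.46 (log2 fold change −2.41, adjusted p = 0.0163). Of 15 serpins *Spn42Dd* fell by 1.58, and the protease homologue *SPH93* fell from 539, 520 and 794 to 57.7, 115 and 59.3.

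The digestive proteases *Jon65Aiv*, *Jon65Aiii* and *yip7*, together on 3L (6035216 to 6051690), were at up to 14.0 scaled CPM in any control. *Jon65Aiv* was at 0.204, 0.733 and 14.0 in the controls and at 338, 152 and 20.8 with *4EHP* RNAi (log2 fold change 6.42, standard error 1.04, adjusted p = 0.0187). *Jon65Aiii* was at 0.259, 0.295 and 12.7 against 151, 113 and 15.8. *yip7* was at 0.0554, 0.0765 and 1.82 against 70.5, 59.7 and 7.13. *4EHP* RNAi 1 was the highest library for each. It was also the highest for the summed gut markers given above. That marker list itself includes Jonah and trypsin genes, *Jon65Aiv* among them, so its sum is not a separate observation. The other 5 proteases tested in the trypsin-family list had higher values in *4EHP* RNAi 1 than in any other library, and none of them was called. The part of gut RNA in these rises was not tested.

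Of 17 neprilysin-family peptidases, which cut peptide signals, *Nepl4*, *Nepl20* and *Nep7* rose by 1.94 to 2.47 and 0 fell (17.6%, against 5.35% of all genes). *Nepl4*, at 33.3 scaled CPM in control 3 and 24.2 to 30.4 with *4EHP* RNAi, had overlapping groups and a log2 fold change of 1.51 over 6 libraries. Of 115 long noncoding RNAs, 4 rose and 2 fell (3.48% and 1.74%, against 5.35% and 1.43% of all genes). The median of these RNAs was 0.02 without control 3 and 0.89 over 6 libraries, and in control 3 the median RNA lay at −2.72 relative to controls 1 and 2 on the log2 scale. Of 17 tetraspanins, membrane scaffold proteins, *Tsp42Ej* fell by 2.01.

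Several lists of housekeeping functions had no call in either direction from limma without control 3. These were the proteasome (31 genes), autophagy (24), lysosomal hydrolases and the proton pump (40), folding and secretion in the endoplasmic reticulum (39), glycolysis (15), the citrate cycle (26), the pentose phosphate pathway (10) and peroxisome biogenesis (13). Their medians lay between −0.13 and 0.54. A missed threshold does not show that these genes were unchanged. By chromosome arm, the share of tested genes that rose was 6.29% on X, 3.74% on 2L, 5.51% on 2R, 4.71% on 3L and 5.75% on 3R. In the NELF-E RNAi and *lacZ* RNAi libraries, which have controls of their own and were normalised apart, the log2 difference was above 0 for 381 of the 459 genes that rose here (83.0%, against 46.5% of all genes tested) and below 0 for 121 of the 123 that fell (98.4%, against 53.5%). This difference was not tested. The study reports a developmental delay with *NELF-E* knockdown too, and its part in the shared directions was not tested.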

How the data were processed

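Polyadenylated RNA was sequenced on a NovaSeq instrument. Per the submitters' processing notes, STAR, featureCounts, DESeq2 and the dm6 build were used, and the versions of these tools, the annotation and the strand setting are not given in the sources used here. The authors deposited CPM, reads per gene scaled to a common total, with no factor between libraries. Whole reads were recovered for 100% of values (tolerance of 0.0963 reads or less), with 59919651 to 92604208 reads per library.

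CPM was divided by median-of-ratios factors, computed again over 5 libraries without control 3. Genes with a mean of at least 5 CPM were tested with limma 3.58.1 (R 4.3.3, eBayes with trend) on log2(scaled CPM + 1), with Benjamini-Hochberg adjustment. Printed scaled CPM uses the factors of 6 libraries. With 3 or fewer libraries per group, p values measure the spread between these pools. On simulated counts for 5 libraries the test recovered 95 of 95 genes changed 4-fold and 57 of 97 changed 2-fold, with 4 false calls among 8589. Apart from the changed genes, the simulated libraries shared the same gene means and a fixed spread, without the differences between libraries seen here. For 6 libraries the simulation recovered 98 of 98 genes changed 4-fold, whereas limma called 0 genes in the 6 real ones. The simulation checks the code and does not give the power or the false calls of the test on these data. Alternatives were edgeR 4.0.16 and DESeq2 1.42.0 on recovered reads (genes with baseMean above 350 for the latter), TMM factors, a pseudocount of 0.1 or 5, deposited CPM without factors, a minimum of 1 CPM or none, array weights, a block by replicate number and omission of single libraries.

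Genes named are *eIF4EHP* and *Col4a1*, the 12 largest rises and 12 largest falls called without control 3 whose groups did not overlap over 6 libraries, and up to 4 called members of each of 48 pathway lists with the largest changes, and any other is marked. Some named by this rule are not reported here. Members, lists and the 11 marker lists were chosen with earlier results of these data known. Positions and overlaps are from the BDGP6.54 annotation, which matched 95.4% of tested genes. The TRIBE table was not used here.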

Additional observations from a re-analysis of the deposited data

How the results depend on the processing

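Over all 6 libraries, where limma called 0 genes higher and 0 lower, it called 71 and 22 with CPM as deposited, 1121 and 1062 with array weights, and 5 higher with a pseudocount of 5, and DESeq2 called 205 and 182. With 1 library left out the counts were between 0 and 459 higher and 0 and 123 lower, the highest without control 3. Without control 3, the 459 and 123 became 976 and 333 with DESeq2 and 1222 and 886 with array weights, and higher calls became 707 with CPM as deposited and 176 with no filter on low values. Leaving out 1 more library gave between 75 and 1103 higher and between 28 and 902 lower. Of the calls, 78.9% were higher in the main test, 58.0% with array weights, 69.2% with the replicate block and 82.3% as deposited. CPM as deposited moved the median log2 fold change of all genes from 0.15 to 0.68 over 6 libraries and from −0.01 to 0.10 without control 3, and it turned the difference of *eIF4EHP* from −3.4 scaled CPM to 0.267 CPM, and its log2 fold change over 6 libraries from −0.28 to 0.25. The cause was not tested for any of these.

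With the replicate number as a block, limma called 0 and 0 genes over 6 libraries and 819 and 364 without control 3. Libraries of the same number had correlated deviations of 0.12, 0.011 and −0.167, so the numbers were not treated as pairs. For the 109 genes named by the rule, 1413 of 1744 values over 6 libraries kept their direction and side of the threshold, 330 passed it and 1 reversed. Without control 3, 1341 of 1635 did so, 293 (in 74 genes) lost their call, 1 gained one and 0 reversed. The lowest genes tested rest on the fewest reads, and 2 controls against 3 libraries limit every result without control 3.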

Other observations

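Outside the lists, genes of DNA repair were read after the values of all genes were seen, so their choice is not independent of how they moved. *agt*, which removes alkyl groups from guanine, was at 0.953, 1.55 and 2.19 scaled CPM in controls 1, 2 and 3 and at 26.4, 31.3 and 26.8 with *4EHP* RNAi (log2 fold change without control 3 of 3.87, standard error 0.23, adjusted p = 0.000748 from limma). *p53*, the transcription factor of the DNA damage response, was at 5.64, 6.92 and 9.06 against 33.2, 35.1 and 33.4 (log2 fold change 2.34, adjusted p = 0.00247). *mre11* and *nbs*, of the complex that binds broken ends, rose by 2.43 and 1.67, while their partner *rad50* had 0.30 (adjusted p = 0.586). *Irbp* and *Ku80*, the pair that binds ends for direct joining, rose by 1.98 and 1.33. All of these except *rad50* had separate groups over 6 libraries. The kinases *tefu*, *lok* and *mei-41*, which signal DNA damage, had log2 fold changes of 0.10, 0.14 and 0.08 and were not called. Of the initiator caspase *Dronc* and the effector caspase *Decay*, both rose (1.36 and 2.38), the latter with control 3 above all *4EHP* RNAi libraries. *rpr*, *hid* and *skl*, which start cell death, were too low to be tested.

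A further set, again chosen after the values were seen, handles RNA and its modification. *Archease* and *RtcB*, which ligate tRNA exons, rose by 3.69 (adjusted p = 0.00251) and 1.48 (adjusted p = 0.0222). *Archease* was at 3.85, 6.27 and 14.5 scaled CPM in the controls and at 55.3, 95.9 and 68.3 with *4EHP* RNAi. *La*, which binds the ends of new small RNAs, was at 31.1, 37.9 and 30.7 against 170, 276 and 220, so the groups were far apart and control 3 was with its group (log2 fold change 2.68 both with and without control 3). *Rpp25*, *Rpp30* and *Pop5*, subunits of RNase P, rose by 1.21 to 1.35. *Ssrp* and *dre4*, which form the histone chaperone FACT, rose by 1.75 and 0.91, and the acetyltransferase *Gcn5* by 2.88 (adjusted p = 0.00398). No theme was tested for these genes.

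Among single genes, the alcohol dehydrogenase *Sodh-2* was at 1.05, 2.39 and 8.77 scaled CPM in the controls and at 26.7, 57.5 and 38.9 with *4EHP* RNAi, and *Aldh*, which oxidises aldehydes, at 148, 192 and 237 against 496, 492 and 496. *Syt1*, a vesicle protein best known from nerve endings, was at 360, 379 and 1530 against 99.4, 72.7 and 79.5 (log2 fold change −2.10, adjusted p = 0.00559). *Xrp1*, a stress response transcription factor, had −0.35 (adjusted p = 0.623) and its partner *Irbp18* 1.27 (adjusted p = 0.0572).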
